A study of Mus musculus with 6 samples.

Results

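Heat shock proteins are molecular chaperones, proteins that bind other proteins and help them fold. The HSP70 proteins bind unfolded stretches in an ATP-driven cycle, HSP90 holds signalling and regulatory proteins close to their active form, and the heat shock factors (HSFs) are transcription factors, of which HSF1 switches on the stress-inducible chaperones. Male germ cells are a special case, since they rely on particular HSP70 and HSP90 forms during meiosis and spermatid development.

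The account covers 10 genes chosen by name: 6 HSP70-type genes (Hspa1a, Hspa1b, Hspa1l, Hspa2, Hspa4l and Hspa8), the HSP90 gene Hsp90aa1, and the factors Hsf1, Hsf2 and Hsf5. They are 10 of the 53700 gene identifiers in the deposited tables, and all 10 were among the 21902 genes with enough reads to test. RNA of whole testes was sequenced from mice of the strain given as Msl3em1Forni/C57BL/6J at postnatal day 45, in 3 libraries of genotype MSL3 WT (WT) and 3 of genotype MSL3 cKO (cKO, a conditional knockout of a floxed Msl3 allele). No treatment is named for either group. Msl3 belongs to the MSL histone acetyltransferase complex, and the comparison asks whether its loss alters spermatogenesis. The recombinase line is not given in the sources used here, so the cells in which the allele was removed are not known from them.

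The libraries held 56991431 to 73766444 reads assigned to genes, cKO 1 being the deepest. Levels below are CPM (a gene's reads per 1000000 assigned reads, with library sizes scaled by TMM), and differences are log2 fold changes of cKO over WT. As a check of the labels, Msl3 had 942, 1226 and 990 reads in WT 1, 2 and 3 and 1170, 829 and 923 in cKO 1, 2 and 3, a log2 fold change of -0.12 (SE 0.088; edgeR quasi-likelihood adjusted p = 0.551). The groups overlapped, so Msl3 gene counts did not separate the libraries labelled cKO from those labelled WT. Gene counts cover every exon and do not test the floxed part alone, and WT and cKO stand throughout for libraries so labelled. The tissue label was matched by its markers: 7 of 7 markers were detected for each of the 4 germ cell stages looked up, with summed levels of 16165 to 20450 CPM for elongating spermatids and 4096 to 4592 CPM for pachytene and diplotene spermatocytes. In bulk tissue, fewer cells of a type and less RNA per cell cannot be told apart.

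The HSP70 genes of the testis include 3 that lie together on chromosome 17. Hspa1a and Hspa1b are the stress-inducible HSP70 genes, and Hspa1l encodes a related protein made mainly in spermatids. Hspa1a (chr17:34969190-34972156, minus strand, GRCm38) and Hspa1l (chr17:34972703-34979285, plus strand) point away from each other with 547 bases between their start sites, and Hspa1b (chr17:34956436-34959238, minus strand) lies 9952 bases beyond the end of Hspa1a. Their promoters, with that of Hspa2 on chromosome 12 (gene at chr12:76404176-76406938, plus strand), are shown because these 4 genes hold the extremes of the levels described next. Each is RefSeq sequence of GRCm38.p6, 250 bases before to 50 after the RefSeq start site, 5′ to 3′ on the strand of the gene. Capitals stand for a pair of heat shock element units, GAANNTTC or TTCNNGAA. The Hspa2 gene start given above, base 76404176, lies before the RefSeq start site, so much of that window is inside the annotated gene.
Hspa1a, chr17:34972107-34972406, minus strand: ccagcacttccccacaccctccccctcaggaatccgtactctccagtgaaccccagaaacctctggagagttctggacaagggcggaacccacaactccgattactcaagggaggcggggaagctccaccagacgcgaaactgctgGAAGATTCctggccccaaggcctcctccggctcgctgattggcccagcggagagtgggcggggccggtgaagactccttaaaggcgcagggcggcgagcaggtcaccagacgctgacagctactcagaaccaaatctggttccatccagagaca
Hspa1b, chr17:34959189-34959488, minus strand: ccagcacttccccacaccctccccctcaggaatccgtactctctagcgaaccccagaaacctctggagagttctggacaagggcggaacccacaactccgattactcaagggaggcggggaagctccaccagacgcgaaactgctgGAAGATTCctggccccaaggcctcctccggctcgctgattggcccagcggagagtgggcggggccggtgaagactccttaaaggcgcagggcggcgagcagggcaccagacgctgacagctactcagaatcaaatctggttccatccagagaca
Hspa1l, chr17:34972453-34972752, plus strand: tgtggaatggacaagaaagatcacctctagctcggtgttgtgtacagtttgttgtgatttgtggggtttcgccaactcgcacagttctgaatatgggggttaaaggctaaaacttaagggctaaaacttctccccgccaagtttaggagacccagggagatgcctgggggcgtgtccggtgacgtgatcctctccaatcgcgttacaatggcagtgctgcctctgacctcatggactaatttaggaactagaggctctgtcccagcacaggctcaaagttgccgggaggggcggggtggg
Hspa2, chr12:76404120-76404419, plus strand: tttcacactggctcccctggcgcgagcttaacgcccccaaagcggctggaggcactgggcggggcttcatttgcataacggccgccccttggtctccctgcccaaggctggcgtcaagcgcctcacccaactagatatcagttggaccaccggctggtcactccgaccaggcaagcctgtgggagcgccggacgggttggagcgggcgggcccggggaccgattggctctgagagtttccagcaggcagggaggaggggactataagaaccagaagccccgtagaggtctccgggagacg
The Hspa1a and Hspa1b promoters shared 296 of 300 bases (98.7%), and each held 1 match to the paired units, GAAGATTC, beginning 104 bases before the start site. The Hspa1l and Hspa2 windows held 0 matches, as did those of Hspa4l and Hsf2. The Hspa4l window (chr3:40745363-40745662) lies wholly inside the annotated gene, which starts at base 40744495. The Hsf5 window held 1, TTCTGGAA, beginning 185 bases before the start site. Both motif forms read the same on either strand, and 15.1% of 32851 RefSeq promoter windows of the same length held at least 1. A match is only a match of letters, and a window without one says nothing about the factor. RefSeq windows were found for 7 of the 10 genes, the others being Hspa8, Hsp90aa1 and Hsf1.

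Sequence likeness also decides how well these genes can be counted. The coding sequences of Hspa1a and Hspa1b were 99.4% identical, against 82.9% for Hspa1a and Hspa1l, 78.2% for Hspa1a and Hspa2, and 74.0% for Hspa2 and Hspa8. Of all 75-base stretches of Hspa1a transcripts, as long as 1 read, 54.2% also occurred in a gene at another place, and 52.7% occurred in Hspa1b. For Hspa1b the share was 55.8%. The table layout holds multimapping reads on a line of their own, so the single counts of Hspa1a and Hspa1b rest mainly on what differs between the copies and are uncertain. Hspa8 shared 32.2% of its stretches, with 10 pseudogenes among the genes concerned, and Hsp90aa1 shared 42.8%, with 3. Hspa1l shared 7.09%, Hsf2 0.435% and Hspa4l 0.144%, and Hspa2, Hsf1 and Hsf5 shared 0.

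Levels were compared between genes per length, as CPM per kb of total exonic length. Hspa2, the HSP70 of spermatocytes that mice need to complete meiosis, had 607, 545 and 564 CPM per kb in WT 1, 2 and 3 and 640, 598 and 578 in cKO 1, 2 and 3, and was above the other 9 genes in every library. Hspa1l had 292, 245 and 287 CPM per kb in the WT libraries and 291, 287 and 287 in the cKO libraries. Hsp90aa1, the HSP90 form that male mice need to complete meiosis, had 232, 218 and 218 in WT and 238, 258 and 242 in cKO. The pair are close: the lowest library of Hspa1l lay below the highest of Hsp90aa1, although Hspa1l was the higher of both in 6 of 6 libraries. Hspa4l, an HSP110-type relative of HSP70 abundant in germ cells, followed with 97.2 to 106.9 CPM per kb.

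Hsf5, a factor of spermatocytes, had rank 5 of the 10 with 63.2 to 78.6 CPM per kb. It lay above Hspa8, the constitutive HSP70 of all cells, which had 32.1 to 37.7. Hsf2, a developmental heat shock factor, had 5.75 to 7.15 CPM per kb, and Hsf1 had 4.35 to 5.17. These 3 steps (Hsf5 over Hspa8, Hspa8 over Hsf2, Hsf2 over Hsf1) held without overlap over the 6 libraries by exonic length. At the bottom, Hspa1b had 0.544 to 0.738 CPM per kb and Hspa1a 0.447 to 0.594, ranges that overlapped each other. Among 21853 tested genes with a known length, Hspa2 ranked 42, Hspa1l 151, Hsp90aa1 197 and Hspa4l 621, whereas Hspa1b and Hspa1a ranked 15714 and 16367.

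**Figure D1:**
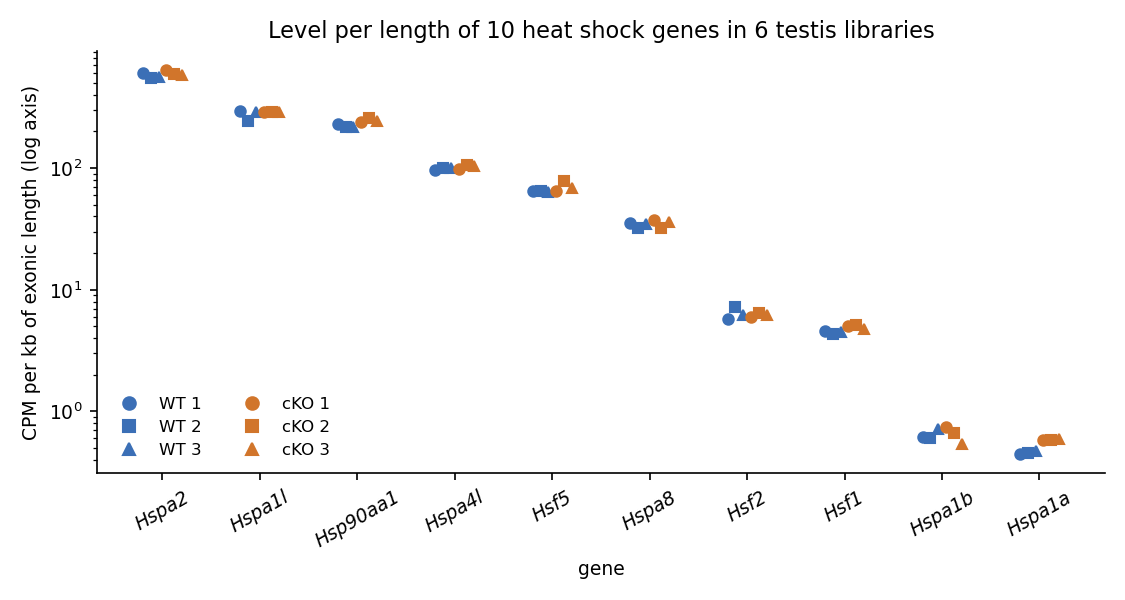
Level of each gene in CPM per kb of exonic length (log axis) in each of the 6 libraries, WT in blue and cKO in orange, with 1 marker shape per replicate number. Hspa2 lies between 545 and 640, and Hspa1a and Hspa1b reach at most 0.738 in any library.

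Parts of this order depend on which length is used. With the length of the principal transcript the 10 mean levels kept their ranks, but Hspa1l was above Hsp90aa1 in only 3 of 6 libraries. By that length Hsf5 (63.2 to 78.6 CPM per kb) overlapped Hspa8 (57.7 to 67.7) and was the higher in 5 of 6 libraries. With the longest coding sequence Hspa4l had rank 2 (473 CPM per kb), Hsp90aa1 rank 3 (419) and Hspa1l rank 4 (362), since the annotated exons of Hspa4l span 11792 bases and its coding sequence 2514. When only 75-base positions not shared with another place were counted as length, Hsp90aa1 had rank 2 (404) and Hspa1l rank 3 (312). Under that measure Hspa1b and Hspa1a had 1.504 and 1.18 CPM per kb. Under all 4 lengths Hspa2 kept rank 1 and Hspa1b and Hspa1a ranks 9 and 10.

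Genes with a known germ cell role were then set against a constitutive or widely expressed relative within each library, which needs no scaling between libraries. Whole-testis RNA does not show which cells made either transcript. The Hspa2 level per length was 16.8 ± 0.514 times that of Hspa8 in WT (SD, n = 3) and 17.1 ± 1.23 times in cKO (SD, n = 3). Hspa1l was at 8.04 ± 0.349 times Hspa8 in WT and 8.17 ± 0.585 times in cKO. Hsp90aa1 was at 1.61 ± 0.0685 times Hsp90ab1, the constitutive HSP90, in WT and 1.65 ± 0.192 times in cKO. Hspa4l was at 1.40 ± 0.0864 times Hspa4, its widely expressed relative, in WT and 1.33 ± 0.0614 times in cKO. These 4 ratios overlapped between the groups. Their size depends on the length used. By principal transcript Hspa2 was at 9.77 times Hspa8 in WT and 9.99 times in cKO, and Hspa1l at 4.47 and 4.55 times. Unshared positions allow for the stretches Hspa8 shares with other places. By that length Hspa2 was at 13.4 times Hspa8 in WT and 13.7 times in cKO, and Hspa1l at 6.93 and 7.05 times. By coding length Hspa4l was at 2.996 times Hspa4 in WT and 2.85 times in cKO. Under each length for which a ratio was computed the gene named first was the higher in 6 of 6 libraries. Ratios to Hsp90ab1 and Hspa4 were not computed by unshared positions.

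At the Hspa1 locus neighbouring genes differed widely in level. Within a library Hspa1l was 483 to 653 times as high per exonic length as Hspa1a, whose start site is 547 bases away. This ratio was 653, 536 and 601 in WT 1, 2 and 3 and 497, 491 and 483 in cKO 1, 2 and 3, without overlap. Its denominator rests on 78 to 127 Hspa1a reads per library. Taken singly, Hspa1l overlapped between the groups and Hspa1a did not, as for 18.9% of all tested genes. The summed copies of Hspa1a and Hspa1b overlapped, and the ratio of Hspa1l to that sum was not computed. By unshared positions, which allow for the stretches Hspa1a shares with Hspa1b, Hspa1l was 239 to 323 times as high as Hspa1a. Annotated transcripts also run against both genes: Gm20481 overlaps 564 exonic bases of Hspa1a, and Gm10501, an antisense RNA, overlaps 1778 exonic bases of Hspa1l. Reads of Gm10501 itself came to 36 to 59 per library, against 39321 to 52548 for Hspa1l. On the strand opposite to Hspa1a there were 43 to 83 reads, or 30.7% to 46.2% of the reads of both strands there. With strand ignored, Hspa1a had 66 to 111 reads, 68.0% to 94.3% of its stranded number, and Gm20481 had 0. Counted without strand, Hspa1l kept 23.4% to 23.8% of its stranded reads, and 30119 to 40126 reads per library lay over Gm10501 on the Hspa1l strand. The counts used here are those of the matching strand.

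**Figure D2:**
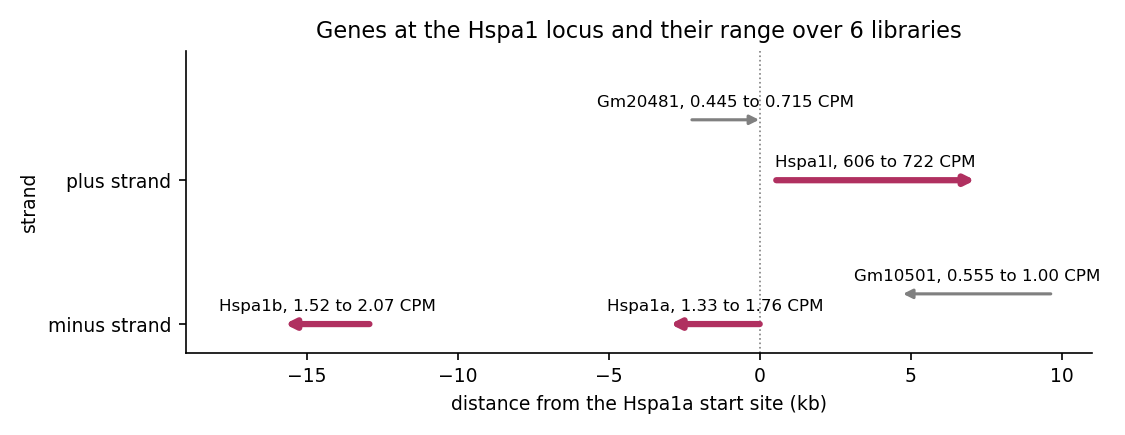
Genes at the Hspa1 locus by distance from the Hspa1a start site (kb), drawn as arrows in the direction of transcription, with the lowest and highest CPM over the 6 libraries. Hspa1l has 606 to 722 CPM, and Hspa1a, which points the other way, has 1.33 to 1.76.

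The comparison of cKO with WT called 0 of the 10 genes at an edgeR adjusted p of 0.05, where 0.0183% of all tested genes passed. With DESeq2 the number was also 0, with adjusted p undefined for Hspa1a and Hspa1b. An unadjusted edgeR p under 0.05 was found for 3 of the 10 (Hspa1a, Hsp90aa1 and Hsf1), each with the higher mean in cKO, and for 13.9% of all tested genes, 7.33% higher and 6.54% lower. In the same 3 the groups did not overlap, as in 18.9% of all tested genes. Of the 10 log2 fold changes 9 were above 0, as were 50.7% of those of all tested genes, and their median was 0.08 against 0.0031 for all tested genes. Over 12 alternative analyses the unadjusted p was under 0.05 in 4 for Hspa1a, 4 for Hsp90aa1 and 5 for Hsf1. The 95% intervals of all 10 lay within a fold of 0.795 to 1.58, so a doubling or a halving lay outside each of them.

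Hspa1a, the inducible HSP70 gene, had 78, 88 and 88 reads in WT 1, 2 and 3 and 127, 97 and 103 in cKO 1, 2 and 3. In CPM these were 1.33, 1.36 and 1.42 against 1.74, 1.73 and 1.76, with every cKO library above every WT library. The log2 fold change was 0.35 (SE 0.14; edgeR adjusted p = 0.313). Its near-copy Hspa1b had 1.72, 1.70 and 2.01 CPM in WT and 2.07, 1.86 and 1.52 in cKO, with a log2 fold change of 0.01 (SE 0.16; edgeR adjusted p = 0.980). The lowest and the highest library of Hspa1b were both cKO, so its groups overlapped in full. Summed before the fit, the copies had 3.05, 3.05 and 3.43 CPM in WT and 3.81, 3.59 and 3.29 in cKO, with overlap. The log2 fold change of the sum was 0.17 (95% interval -0.09 to 0.43; edgeR adjusted p = 0.549). The sum still counts a read given to the wrong copy, but it does not restore multimapping reads, which are in neither count. Counted without strand, Hspa1a had 66 to 111 reads, taken from either strand and 68.0% to 94.3% of its stranded number per library. The log2 fold change of Hspa1a was then 0.16 (edgeR adjusted p = 0.709), and that of the summed copies was 0.07.

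Hspa2 had 1605, 1441 and 1491 CPM in WT 1, 2 and 3 and 1692, 1582 and 1528 in cKO 1, 2 and 3, a log2 fold change of 0.08 (95% interval -0.07 to 0.23; edgeR adjusted p = 0.626). WT 1 lay above cKO 2 and cKO 3, so the groups overlapped. Hspa1l had 722, 606 and 708 CPM in WT and 720, 709 and 709 in cKO, with a log2 fold change of 0.07 (edgeR adjusted p = 0.715). WT 2 alone lay low for Hspa1l, and without it the value was -0.01. Hspa4l (chr3:40744495-40796103, plus strand) had 1147, 1180 and 1171 CPM in WT and 1163, 1261 and 1218 in cKO, a log2 fold change of 0.06 (edgeR adjusted p = 0.715), and cKO 1 fell among the WT libraries. Hspa8 (chr9:40800984-40810087, plus strand) had 152, 138 and 150 CPM in WT and 162, 140 and 155 in cKO, a log2 fold change of 0.05 (edgeR adjusted p = 0.789), and cKO 2 lay among the WT libraries. Without cKO 1 the Hspa8 value was 0.01.

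Hsp90aa1 (chr12:110690605-110702728, minus strand) had 911, 858 and 857 CPM in WT 1, 2 and 3 and 935, 1016 and 952 in cKO 1, 2 and 3. All cKO libraries lay above all WT libraries, cKO 1 and WT 1 being the nearest. The log2 fold change was 0.14 (SE 0.065; edgeR adjusted p = 0.352), a mean of 875 ± 31.1 CPM (SD, n = 3) against 968 ± 42.7 (SD, n = 3). Hsp90b1, the HSP90 of the endoplasmic reticulum, showed the same layout, with 753 to 843 CPM in WT and 864 to 901 in cKO and a log2 fold change of 0.17 (edgeR adjusted p = 0.317). Summed over the 4 HSP90 genes, the level was 2129 to 2349 CPM in WT and 2421 to 2471 in cKO, without overlap. Within this sum Hsp90ab1 (log2 fold change 0.11) and Trap1 (0.0043) each overlapped between the groups. Of all tested genes taken singly, 18.9% did not overlap.

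Of the heat shock factors, Hsf1 (chr15:76477422-76501913, plus strand), the main activator of the stress response, had 32.8, 30.9 and 31.8 CPM in WT and 35.7, 36.7 and 34.1 in cKO. The groups did not overlap, and the log2 fold change was 0.16 (SE 0.068; edgeR adjusted p = 0.341). Hsf2 (chr10:57486385-57513135, plus strand) had 55.2, 68.7 and 59.6 CPM in WT and 57.1, 62.2 and 60.1 in cKO, a log2 fold change of -0.03 (edgeR adjusted p = 0.896). All 3 cKO values of Hsf2 lay inside the WT range, whose top is WT 2, and without WT 2 the value was 0.06. Hsf5 (chr11:87617164-87659542, plus strand) had 269, 269 and 263 CPM in WT and 267, 327 and 285 in cKO, a log2 fold change of 0.13 (edgeR adjusted p = 0.460). The Hsf5 difference came mostly from cKO 2, without which it was 0.05. Without cKO 1 it was 0.20 (edgeR adjusted p = 0.197).

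**Figure D3:**
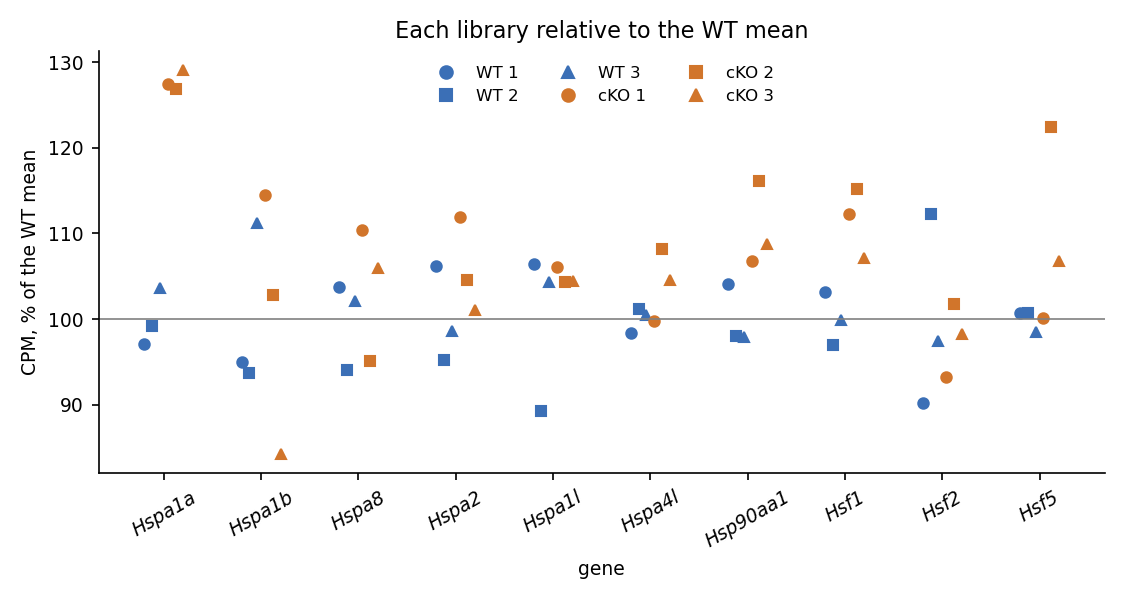
CPM of each library as a percentage of the mean of the 3 WT libraries, for each gene (WT blue, cKO orange, 1 marker shape per replicate number). The 3 cKO libraries lie above the 3 WT libraries for Hspa1a, Hsp90aa1 and Hsf1, and the groups overlap for the other 7 genes.

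**Figure D4:**
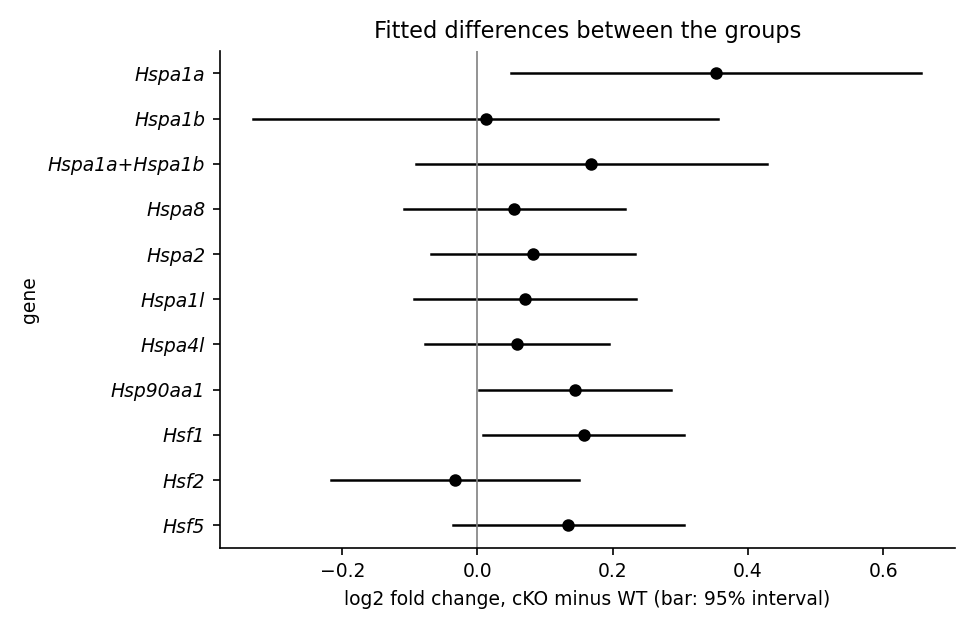
Fitted log2 fold change of cKO over WT (points) with its 95% interval (bars) for the 10 genes and for Hspa1a and Hspa1b summed. The intervals of Hspa1a, Hsp90aa1 and Hsf1 lie above 0 before adjustment, those of the other 7 genes and of the sum include 0, and 0 of the 10 genes passed an adjusted p of 0.05.

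The wider chaperone network was read from 8 lists. Of the 90 listed genes that are not among the 10, 85 were tested, and 0 passed an edgeR adjusted p of 0.05. At an unadjusted p under 0.05 there were 2 higher and 4 lower in cKO, against 7.33% higher and 6.54% lower over all tested genes. The median log2 fold change of the 85 was 0.02. Counted with the members they hold, the HSP90 family had all 4 values above 0 (median 0.13), the HSP90 co-chaperones 13 of 16 (median 0.07), the HSP70 superfamily 10 of 15 (median 0.05) and the J-domain proteins, which hand substrates to HSP70, 15 of 23 (median 0.04). Values below 0 were found for 7 of 12 HSP70 exchange factors and cofactors (median -0.01), 7 of 11 chaperonin genes (median -0.06), 4 of 6 tested heat shock factors and partners (median -0.05) and 3 of 8 tested small heat shock proteins (median 0.02). Hsf3, Hsf4, Hspb2, Hspb3 and Cryaa had 0 to 18 reads per library and were not tested.

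With the 10 genes left out, the lowest unadjusted p in these lists belonged to Dnajb7, a J-domain gene. It had 132, 176 and 159 CPM in WT 1, 2 and 3 and 120, 121 and 124 in cKO 1, 2 and 3, without overlap, and a log2 fold change of -0.36 (SE 0.092; edgeR adjusted p = 0.276). It passed the threshold with DESeq2 (adjusted p = 0.0280), without WT 1 (edgeR adjusted p = 0.0244) and without the filter on low counts (edgeR adjusted p = 9.0e-04). Over all tested genes, those settings passed 209, 116 and 757 genes in that order, against 4 in the main fit. Dnajb7 did not pass under the remaining alternatives. Grpel1, the exchange factor of mitochondrial HSP70, had 59.6 to 66.0 CPM in cKO against 67.5 to 79.4 in WT (log2 fold change -0.19; edgeR adjusted p = 0.317). Hspe1, the mitochondrial co-chaperonin, had a log2 fold change of -0.38 and the small heat shock protein Hspb9 one of -0.28, each with an edgeR adjusted p of 0.307 and with overlap between the libraries. Both passed without the filter on low counts (edgeR adjusted p = 0.0139 for Hspe1 and adjusted p = 0.0126 for Hspb9). In the remaining lists apart from the HSP90 family, and again without the 10 genes, the lowest p belonged to Hspa4 (0.13), Hsbp1, an HSF1-binding protein (-0.16), and Nudc, an HSP90 co-chaperone (0.14), with edgeR adjusted p from 0.394 to 0.460.

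The listed gene with the highest level per length, members aside, was taken from each list. Odf1, a small heat shock protein of the sperm tail, had 1161 CPM per kb, the J-domain gene Dnajb3 761, the chaperonin subunit Tcp1 451, and Bag1, an HSP70 exchange factor, 325, all above Hspa1l (281). Hsbp1 followed with 264, the HSP90 co-chaperone Fkbp4 with 220, the endoplasmic HSP70 Hspa5 with 214 and Hsp90b1 with 207. Their log2 fold changes lay between -0.16 and 0.17, with edgeR adjusted p from 0.317 upward.

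**Figure D5:**
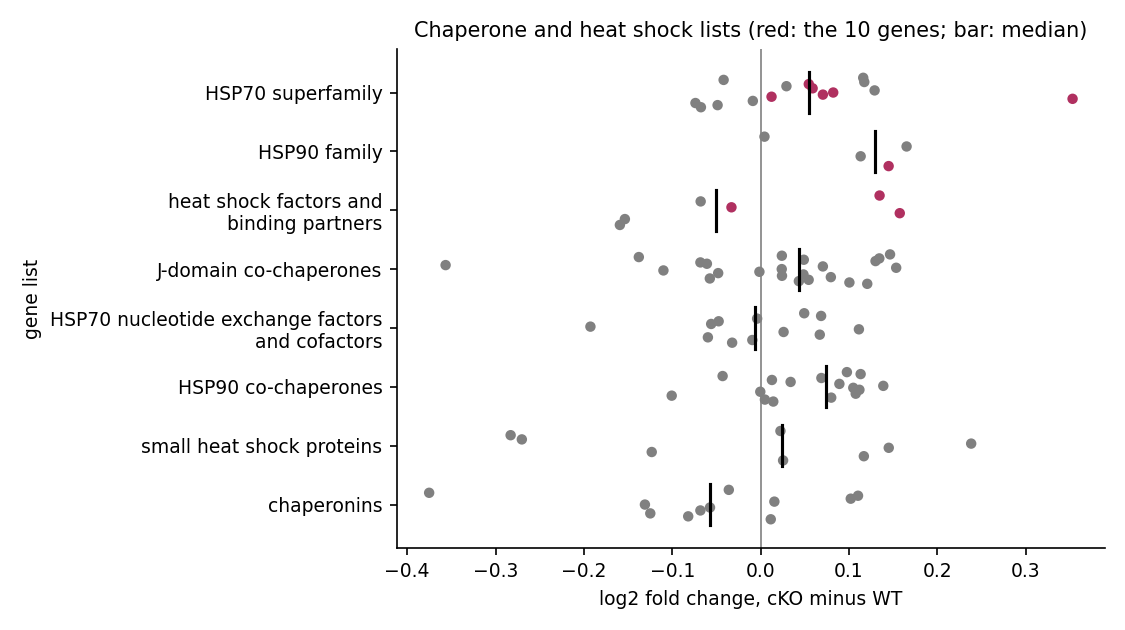
Log2 fold change of cKO over WT of each tested gene in 8 chaperone and heat shock lists (points, red for the 10 genes described) and the median of each list (black bars). The lists spread on both sides of 0, from -0.38 for Hspe1 to 0.35 for Hspa1a.

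Markers of the cells that could carry these transcripts were summed beside the results. For round spermatids 6 of 7 markers had values below 0 (0 passed the threshold), and their sum was 1626 to 1675 CPM in WT and 1450 to 1582 in cKO, without overlap. The sums of the other 7 marker lists overlapped, although some of their single markers did not. Pachytene and diplotene markers summed to 4251 to 4568 CPM in WT and 4096 to 4592 in cKO (4 of 7 above 0), elongating spermatid markers to 18589 to 20450 and 16165 to 19365 (3 of 7 above 0), and Sertoli markers to 1187 to 1441 and 1219 to 1577 (6 of 7 above 0). Spermatogonial markers summed to 124 to 146 CPM in WT and 126 to 145 in cKO (5 of 7 above 0), Leydig markers to 834 to 995 and 763 to 990 (1 of 6 above 0), macrophage markers to 85.9 to 102.6 and 89.2 to 106.4 (1 of 6 above 0), and peritubular myoid markers to 118 to 122 and 113 to 135 (1 of 5 above 0). No marker of any list was at 0. Abundant markers carry most of a sum, as Clu did for Sertoli cells (mean 1091 CPM in WT, 1187 in cKO). Taken singly, the Sertoli markers Sox9 (log2 fold change 0.26) and Wt1 (0.16) were higher in cKO without overlap. The other Sertoli markers overlapped. Lower in cKO without overlap were 2 round spermatid markers, 1 pachytene and diplotene marker and 1 peritubular myoid marker. For macrophages 1 marker was higher without overlap. In each list 0 markers passed the threshold. The part of cell composition in the differences of Hspa1a, Hsp90aa1 and Hsf1 was not tested. The 10 genes together took 0.470% to 0.488% of assigned reads in WT and 0.494% to 0.504% in cKO, without overlap, most of it from Hspa2, Hspa4l, Hsp90aa1 and Hspa1l. Taken singly, Hspa2, Hspa4l and Hspa1l overlapped between the groups, and 18.9% of all tested genes did not overlap.

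The gene with the widest range over the 6 libraries, as a log2 ratio of the highest to the lowest, was Hspa1b (0.44), followed by Hspa1a (0.41), Hsf2 (0.32) and Hsf5 (0.31). The narrowest was Hspa4l (0.14). The 5 genes of at least 5 CPM whose centred log2 CPM differed least from that of Hspa1b over the 6 libraries were Mapk15, Cyb5d1, Gdpd5, Ankrd9 and 1700025L06Rik, with root mean square differences of 0.0557 to 0.0668 against a spread of 0.150 of Hspa1b about its own mean. These 5 were picked as the nearest of all tested genes at that level, so small differences were built into the choice. Hspa1b rested on 89 to 151 reads per library, the fewest of the 10 genes after Hspa1a, and the part of counting noise in its pattern was not tested.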

How the data were processed

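Total RNA from the testes of 3 WT and 3 cKO mice was sequenced as single-end reads of 75 bases. Per the submitters' processing notes, STAR, HTSeq, DESeq2 and the build mm10 were used, with no role or version stated, and the annotation release is not given in the sources used here. The deposited values are whole-number read counts per gene, laid out as STAR's gene counts, which the authors left unnormalized. The column holding the reads of 1 strand that gave 96.0% to 96.2% of stranded reads was used. In that column 14.8% to 16.7% of reads were not assigned to a single gene, being unmapped, multimapping, outside genes or ambiguous. The 6 libraries were fitted with edgeR 4.0.16 in R 4.3.3 (library sizes scaled by TMM, genes kept by filterByExpr at a count of 10 or more, a quasi-likelihood test of genotype, Benjamini-Hochberg adjustment over all 21902 tested genes, threshold 0.05). Per the labels, the libraries of a group are biological replicates.

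Of the identifiers, 52147 of 53700 matched GENCODE M21 (GRCm38), which gave lengths and positions. Lengths are the union of a gene's annotated exons. The 3 other lengths were added after the data were seen. Shared stretches were counted over 75-base windows of annotated transcripts, without alignment of reads. Promoters are RefSeq windows. The 10 genes and all lists were chosen with earlier results of these data known. Named genes beyond the 10 are, per list, the tested gene with the lowest unadjusted p and that with the highest level per length, Msl3, and the 5 genes nearest in pattern to the gene with the widest range. DESeq2 1.42.0, other scalings, no filter, counts without strand, a replicate block and leaving out each library were tried as alternatives.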

Additional observations from a re-analysis of the deposited data

How the results depend on the processing

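Of the 10 genes, 0 passed the threshold under all 12 alternatives, the smallest adjusted p being 0.197 (edgeR, Hsf5 without cKO 1). The sign held in 12 of 12 alternatives for 7 of the 10 genes. Hspa1b turned to -0.016 with library totals and ranged from -0.10 to 0.12 when single libraries were left out, Hspa1l then ranged from -0.0055 to 0.12 (lowest without WT 2) and Hsf2 from -0.10 to 0.058 (highest without WT 2). The causes were not tested. Over all tested genes the number past the threshold was 4, and it was 757 with no filter on low counts, 2 with unstranded counts, 209 with DESeq2 and 1 to 628 with a library left out (628 without cKO 1, 116 without WT 1). For the wider lists it was 0, and it was 3 with no filter, 1 with DESeq2 and 0 to 1 with a library left out. With the replicate number as a block 49 genes passed (0 of the 10). Same-numbered libraries correlated at 0.34, 0.26 and -0.04 in their deviations from the group means, and numbers 1 and 2, but not 3, correlated best with their own. The labels do not say that a number marks a shared litter or day, and a partial pairing was not tested further. With 3 libraries a group, precision at Hspa1a and Hspa1b is limited by their 78 to 151 reads.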
